A study of Mus musculus with 31 samples.

Results

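The genes described here are 34 collagen genes, chosen by name, out of the 47729 genes counted in 31 libraries from laser-microdissected pieces of embryonic mouse olfactory and trigeminal nerve. They comprise 8 fibrillar genes, 6 type IV genes, 3 type VI genes, 2 type VIII genes, the anchoring-fibril gene Col7a1 with Col28a1, 6 fibril-associated genes, 2 multiplexin genes, 4 transmembrane collagen genes and Col26a1. All 34 passed the filter on low counts and were tested among 19332 genes. The cartilage collagens Col2a1, Col9a1, Col9a2, Col9a3 and Col11a2 were not among the 34 and are among the 10 markers of cartilage used here. The summed levels and class shares of collagen below leave them out.

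The pieces were cut from frozen sections of Sox10:Histone2BVenus embryos, in which the Sox10 regulatory sequence of a transgene puts a fluorescent protein into the nuclei of neural crest-derived glia, and no group differed in genotype or treatment. Olfactory nerve was cut where its bundles cross the lamina propria beneath the olfactory epithelium, at E11.5 (E, embryonic day), and again at E13.5 and E16.5. The olfactory nerve layer (ONL, the outermost layer of the olfactory bulb) was cut at the 2 later stages, and at E16.5 trigeminal nerve was added. At E16.5 the ONL was taken as an inner part, next to the bulb, and an outer part, furthest from it. The glia of the olfactory nerve and ONL are olfactory ensheathing cells (OECs) and those of trigeminal nerve are Schwann cells, but every library is bulk tissue that also holds axons, vessels and adjacent connective tissue. The paper reports that the inner and outer cuts did not part the OEC populations of the inner and outer layers. It also reports that the inner ONL libraries included tissue of the bulb. In such pieces, fewer cells of a type and less RNA per cell cannot be told apart. Between 3512627 and 36705535 reads were assigned to genes per library, and the trigeminal nerve libraries (30221586 to 32508725) were deeper than the other E16.5 libraries (13379107 to 16800784). Under the grouping given below, E11.5 olfactory nerve libraries (24218053 to 36705535) were deeper than those of E13.5 olfactory nerve (5297347 to 16413112). Stage and depth therefore go together in that comparison.

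The labels of 10 early libraries differ from the grouping used here, which follows the study's own grouping of these libraries. Those labelled E11.5_ON1 to E11.5_ON4 and E13.5_ON1 were taken as E13.5 ONL (n = 5), those labelled E13.5_ON2 to E13.5_ON7 and E13.5_ONL1 as E13.5 olfactory nerve (n = 7), and those labelled E13.5_ONL2 to E13.5_ONL5 as E11.5 olfactory nerve (n = 4). The library nearest in rank correlation lay in the same group for 31 of 31 libraries under this grouping and for 26 of 31 under the labels. Glial markers, none of them at the floor in any group, summed to 481 CPM or more in every library, and bulb neuron markers to 785 to 1092 CPM in the E13.5 ONL libraries and 25.9 to 67.3 in the other early libraries. Early values are therefore given under this grouping, and the text gives the values under the labels where they bear on a result. The E16.5 groups (inner ONL, outer ONL and olfactory nerve, n = 4 each, and trigeminal nerve, n = 3) are the same under both, and their pieces were cut from shared embryos, though no source says which libraries share one. At E11.5 and E13.5 a group holds more libraries than embryos, so that some libraries share an embryo and p-values over them are too small.

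Collagens are secreted or membrane-bound proteins built from chains that wind into a triple helix. The fibrillar types I, III and V form the fibrils of connective tissue, type IV forms the sheet-like network of basement membranes, and the fibril-associated types sit on the surface of fibrils. In peripheral nerve, Schwann cells lie on a basement membrane among endoneurial fibrils, whereas OECs enclose bundles of olfactory axons, and fibroblasts and meningeal cells around the bundles also make collagen. The level of a gene in one of these pieces is therefore the sum over all the cells cut.

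The type IV genes lie in head-to-head pairs, and the sequence between partners is shown because the 3 pairs differed in the order of their levels over the compartments. Promoters of Col5a3 and Col8a1 are shown because these genes set trigeminal nerve and olfactory nerve apart by large differences. Sequences are from RefSeq, build GRCm38.p6, written 5′ to 3′ on the strand named, with the letters GGGCGG or their reverse complement CCGCCC (a GC box) in capitals. The first exons of Col4a2 (+ strand) and Col4a1 (− strand) overlap by 22 bases at chr8:11312805-11312826 (+). The interval between the starts of Col4a4 and Col4a3 spans 71 bases at chr1:82586850-82586920 (+). The starts of Col4a6 and Col4a5 lie 1343 bases apart, and 100 bases upstream are shown for each, at chrX:141475285-141475384 (+) for Col4a5, ending 35 bases before the RefSeq start, and at chrX:141474077-141474176 (−) for Col4a6. For Col5a3 the 100 bases are chr9:20815068-20815167 (−) and for Col8a1 chr16:57754738-57754837 (−).
Col4a2-Col4a1: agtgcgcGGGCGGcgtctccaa
Col4a4-Col4a3: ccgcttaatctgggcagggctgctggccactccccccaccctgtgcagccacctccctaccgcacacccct
Col4a5: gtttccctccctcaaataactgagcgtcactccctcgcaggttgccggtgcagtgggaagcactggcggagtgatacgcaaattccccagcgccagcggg
Col4a6: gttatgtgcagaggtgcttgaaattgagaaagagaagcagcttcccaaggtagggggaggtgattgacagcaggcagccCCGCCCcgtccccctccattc
Col5a3: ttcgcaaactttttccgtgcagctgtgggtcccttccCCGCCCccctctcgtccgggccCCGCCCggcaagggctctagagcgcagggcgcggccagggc
Col8a1: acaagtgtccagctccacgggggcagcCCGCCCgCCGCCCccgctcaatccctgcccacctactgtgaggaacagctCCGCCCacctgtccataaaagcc
These stretches are GC-rich, at 72.7% for the Col4a2-Col4a1 overlap, 69.0% for the Col4a4-Col4a3 interval, 61.0% for Col4a5, 57.0% for Col4a6, 72.0% for Col5a3 and 67.0% for Col8a1. A GC box stands in the 100 bases upstream of 13 of the 27 collagen genes that have a promoter entry, against 24.7% of 32851 promoter entries of all genes. The 27 genes have 29 entries, and a gene with several entries was counted if any held the box. Col4a5 is among the 13 because its 100 bases were there taken up to the RefSeq start, past the end of the stretch printed. CCAAT was found, on either strand, in 2 of the 27 (18.9% of all entries), and TATAAA in 1 (5.56%). Matches of different motifs may overlap, and a match is a description of the sequence only.

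Read per length, the 34 genes together were lowest in inner ONL and highest in trigeminal nerve at E16.5. Their summed level was 583 ± 99.6 RPKM (reads per kilobase of transcript and per unit of sequencing depth, SD, n = 4) in inner ONL, 1859 ± 556 in outer ONL, 3285 ± 881 in olfactory nerve and 6333 ± 586 in trigeminal nerve (n = 3). The lowest trigeminal library (5822) lay above the highest olfactory nerve library (4164). In the early libraries the sum was 683 ± 101 in E11.5 olfactory nerve, 1295 ± 250 in E13.5 olfactory nerve and 683 ± 138 in E13.5 ONL. Under the labels it was 703 ± 150, 1203 ± 364 and 794 ± 265.

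The make-up of that sum also differed between compartments. Fibrillar chains were 73.6% ± 2.76 of the summed RPKM in trigeminal nerve and 53.4% ± 5.32 in inner ONL, with outer ONL (63.9% ± 2.08) and olfactory nerve (61.4% ± 2.41) between them. Type IV chains had their largest share in inner ONL and their smallest in trigeminal nerve, at 22.1% ± 3.28 in inner ONL, 14.2% ± 1.75 in outer ONL, 13.6% ± 1.51 in olfactory nerve and 6.41% ± 0.630 in trigeminal nerve. Neither share set outer ONL and olfactory nerve apart beyond their spread. Type VIII chains were 4.74% ± 0.540 in olfactory nerve and at most 1.40% on average in the other E16.5 groups, but they were 7.07% in E11.5 olfactory nerve under the grouping used here and 1.87% under the labels. These shares are descriptions and were not tested.

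**Figure D1:**
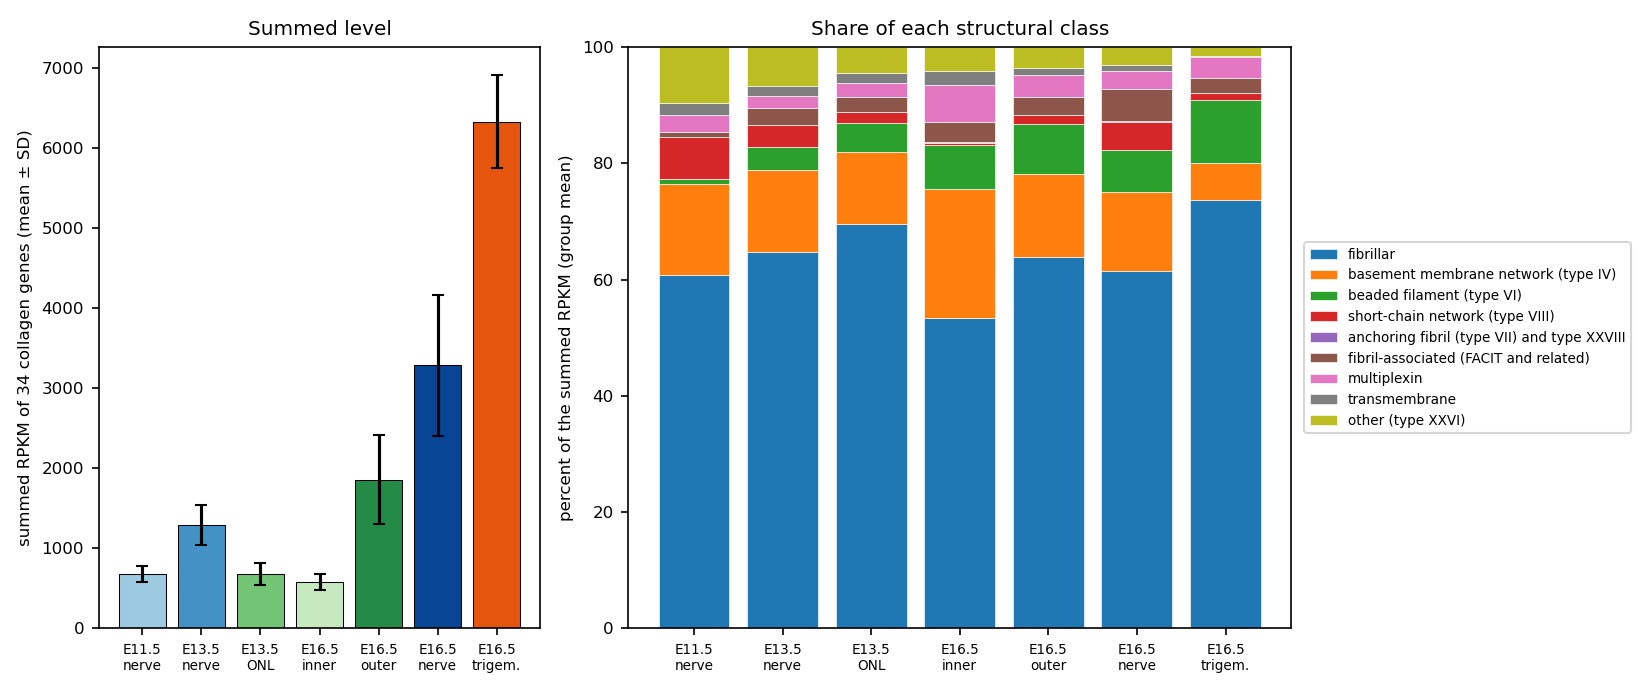
Summed level of the 34 collagen genes in RPKM (left, bars are group means and error bars SD over libraries) and the mean percentage of that sum held by each structural class (right, stacked bars) in the 7 groups. Trigeminal nerve has the highest sum (6333 RPKM) and the largest fibrillar share (73.6%), and inner ONL the largest type IV share (22.1%).

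At E16.5, 4 comparisons of places were possible, and because they share groups they are not independent of each other. Differences were judged by the quasi-likelihood test of edgeR, adjusted by the Benjamini-Hochberg method over all genes, and a gene is said to differ where its adjusted p was under 0.05. Between outer ONL and olfactory nerve 20 of the 34 genes differed, 2 higher and 18 lower in outer ONL, where 22.0% of all genes tested differed (10.2% higher and 11.8% lower). Between outer ONL and trigeminal nerve 18 differed, 16 of them lower in outer ONL, against 25.8% of all genes (12.3% lower). Between olfactory and trigeminal nerve 20 differed, 7 higher and 13 lower in olfactory nerve, against 23.6% of all genes (13.0% higher, 10.6% lower). Between inner and outer ONL 21 differed, all 21 lower in inner ONL, against 14.1% of all genes (8.20% higher, 5.94% lower). The median log2 fold change of the 34 genes was −0.77, −0.88, −0.23 and −1.38 in these comparisons, while that of all genes lay between −0.05 and 0.01. The inner ONL median is −1.32 with Col17a1, which was near 0 in both parts, taken at the floor of 3 counts. With libraries scaled by total count alone, the median of all genes moved to −0.13 for outer ONL against olfactory nerve, 0.13 for outer ONL against trigeminal nerve and 0.25 for olfactory against trigeminal nerve, and the collagen calls were then 19, 14 and 11 lower with 2, 2 and 7 higher. Under that scaling 34.1%, 62.7% and 77.5% of all called genes were higher, instead of 46.4%, 52.5% and 55.1%.

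When the early libraries were grouped by their labels, which changes only the spread shared by all groups, 13, 13, 14 and 15 genes differed in these 4 comparisons, against 16.1%, 20.3%, 17.8% and 8.58% of all genes. Every one of those was also called under the grouping used here. With the E16.5 libraries fitted alone, 21, 22, 20 and 23 genes differed, including every gene called above, against 25.7%, 31.3%, 26.9% and 17.7% of all genes.

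**Figure D2:**
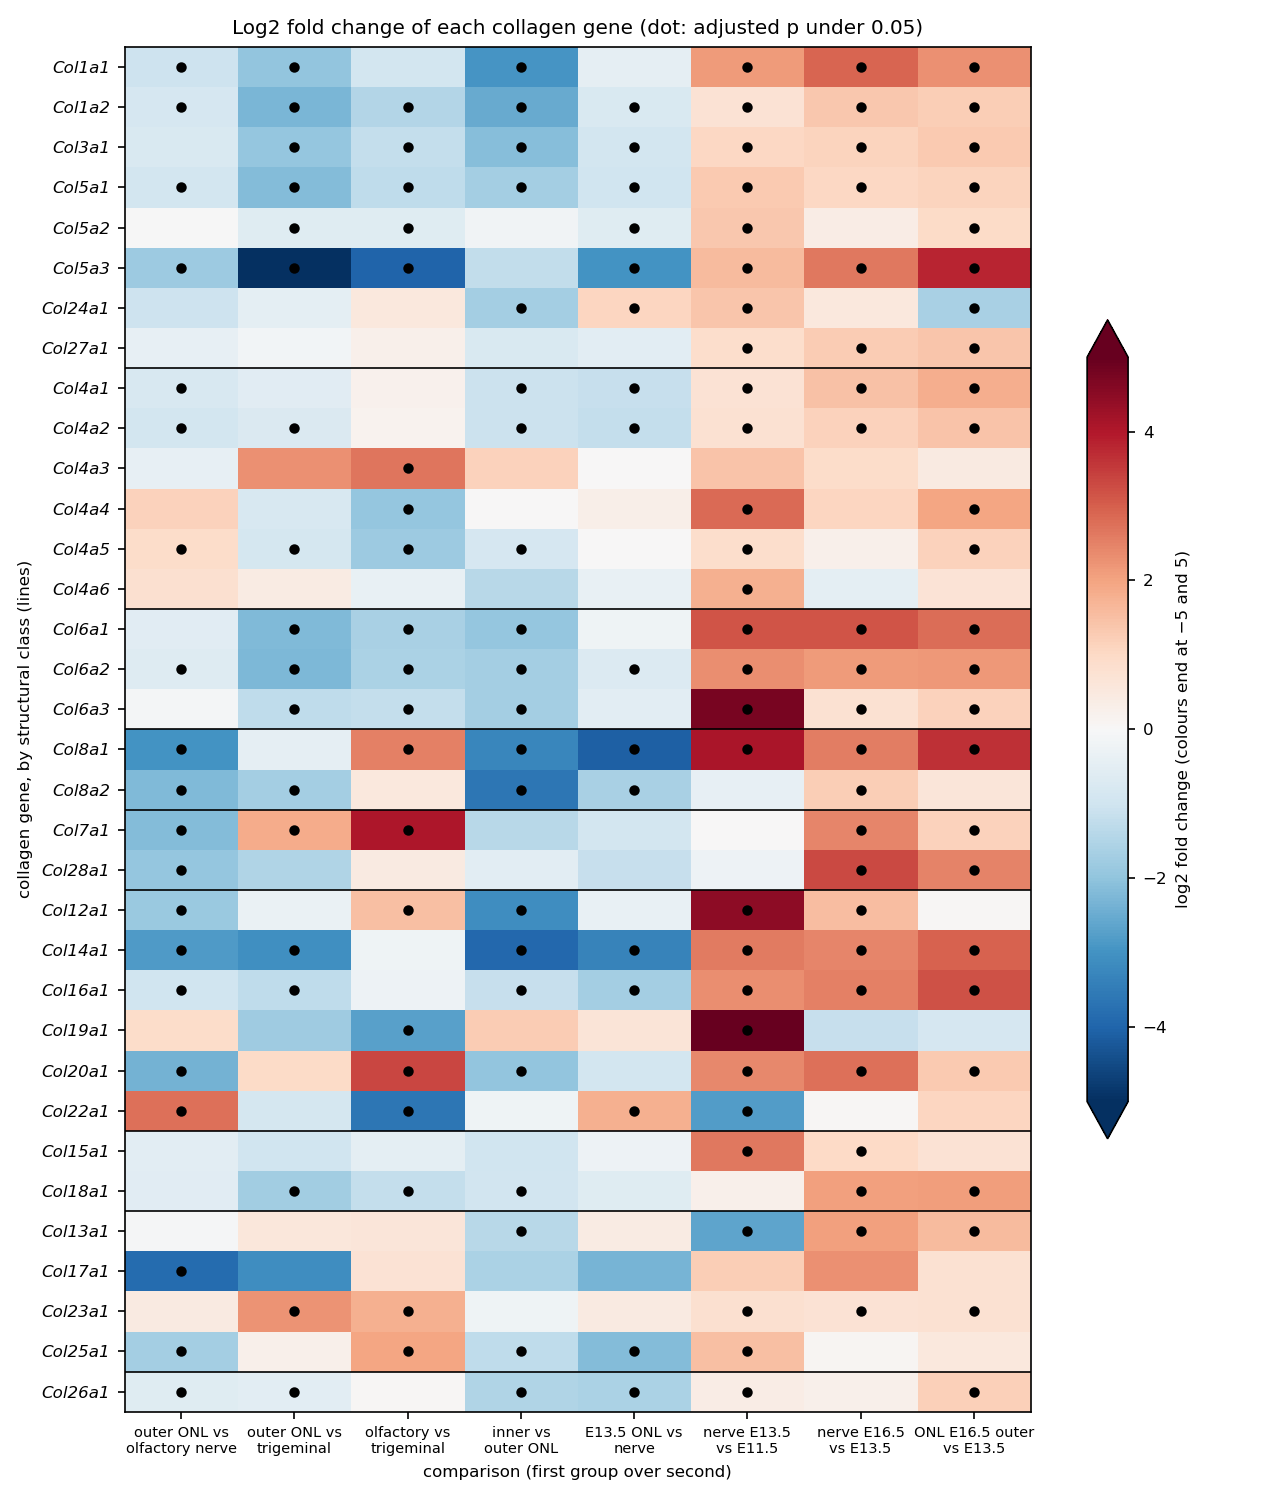
Log2 fold changes of the 34 collagen genes (rows, by structural class) in 8 comparisons (columns, named as first group against second), with the colour scale ending at −5 and 5 and a dot where the adjusted p was under 0.05. Inner ONL against outer ONL shows 21 dots, all on lower values, and olfactory nerve at E16.5 against E13.5 shows 23 dots, all on higher values.

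Type I and type III collagen, the bulk of connective tissue fibrils, were lowest next to the bulb and highest in trigeminal nerve. Col3a1, the single chain of type III collagen (chr1:45311538-45349706, + strand, mm10), had the highest RPKM in all 7 groups, from 152 ± 51.9 in inner ONL to 2509 ± 511 in trigeminal nerve. Col1a2, a chain of type I collagen (chr6:4504814-4541544, +), had 220, 284, 161 and 317 CPM (counts scaled to a common library size) in inner ONL, 730, 1287, 2045 and 1644 in outer ONL, 2556, 2494, 3215 and 1994 in olfactory nerve and 6862, 7232 and 6912 in trigeminal nerve. Outer ONL and olfactory nerve overlapped and the other neighbours did not. Col1a2 was lower in inner than in outer ONL by 2.54 ± 0.23 on the log2 scale (SE, adjusted p = 2.75e-08). It was also lower in outer ONL than in olfactory nerve (−0.85 ± 0.21, adjusted p = 0.00417) and in olfactory than in trigeminal nerve (−1.45 ± 0.23, adjusted p = 1.64e-05). Its partner Col1a1 (chr11:94936224-94953042, +) had 73.4, 111, 73.6 and 121 CPM in inner ONL, 208, 776, 780 and 1196 in outer ONL, 1059, 1670, 2052 and 1364 in olfactory nerve and 2325, 2660 and 3840 in trigeminal nerve. Outer ONL replicate 1 was low beside its group for both type I chains. The difference of Col1a1 between outer ONL and olfactory nerve (−1.05 ± 0.33, adjusted p = 0.0203) lost its call without olfactory nerve replicate 3 (adjusted p = 0.0609) or outer ONL replicate 1 (0.0627), and that between olfactory and trigeminal nerve did not pass (−0.94 ± 0.35, adjusted p = 0.051) and did without olfactory nerve replicate 3 (0.0376) or in a fit of the 2 groups alone (0.0138).

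Col3a1 followed the same order with wide spread, at 862, 954, 448 and 1129 CPM in inner ONL, 3458, 2071, 5769 and 3451 in outer ONL, 9338, 3804, 8065 and 3568 in olfactory nerve and 15356, 15832 and 10684 in trigeminal nerve. Olfactory nerve fell into a high and a low pair of libraries. The difference between outer ONL and olfactory nerve did not pass the unpaired test (−0.75 ± 0.33, adjusted p = 0.113) and did with the replicate number as a block (adjusted p = 0.027) or without olfactory nerve replicate 4 (adjusted p = 0.0428) or outer ONL replicate 3 (0.0337), while outer ONL was below trigeminal nerve (−1.92 ± 0.36, adjusted p = 0.000131). The call between olfactory and trigeminal nerve (−1.17 ± 0.36, adjusted p = 0.0157) was lost without olfactory nerve replicate 2 or 4 or trigeminal replicate 1 or 2 (adjusted p = 0.0584 to 0.0759). Type V collagen starts and regulates these fibrils. Its chain Col5a1 had 460 to 715 CPM in olfactory nerve, 182 to 374 in outer ONL and 81.5 to 110 in inner ONL, and differed in all 4 comparisons, most between outer ONL and trigeminal nerve (−2.18 ± 0.22, adjusted p = 4.43e-09). Col5a2, the partner chain, had 428 to 679 CPM in inner ONL and 510 to 714 in outer ONL, which overlap (−0.16 ± 0.20, adjusted p = 0.729).

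Col5a3 (chr9:20770050-20815067, −), a minor type V chain that is known in Schwann cells, had the largest difference of the 34 genes between outer ONL and trigeminal nerve and the second largest, after Col7a1, between the nerves. It had 161, 179 and 156 CPM in trigeminal nerve, 13.9, 10.1, 11.2 and 5.54 in olfactory nerve, 0.844, 3.77, 4.98 and 2.08 in outer ONL and 1.55, 1.66, 1.57 and 0.241 in inner ONL. No library of one nerve or of outer ONL reached the range of the next. The log2 difference was −5.82 ± 0.63 between outer ONL and trigeminal nerve (adjusted p = 2.5e-08) and −4.02 ± 0.58 between olfactory and trigeminal nerve (adjusted p = 3.96e-06). The smaller difference between outer ONL and olfactory nerve (−1.80 ± 0.55, adjusted p = 0.0162) was lost without outer ONL replicate 1 or 4 (adjusted p = 0.0651 and 0.0534). The summed level of 6 glial markers was 1372 to 1660 CPM in trigeminal nerve, 1661 to 3906 in olfactory nerve and 18668 to 32874 in outer ONL, while between olfactory and trigeminal nerve 2 of the 6 were lower and 1 higher, with a median log2 fold change of −0.57. Their part in the Col5a3 result was not tested. The minor fibrillar genes Col24a1 and Col27a1 stayed below 154 CPM in all libraries, and Col24a1 was lower in inner than in outer ONL (−1.71).

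**Figure D3:**
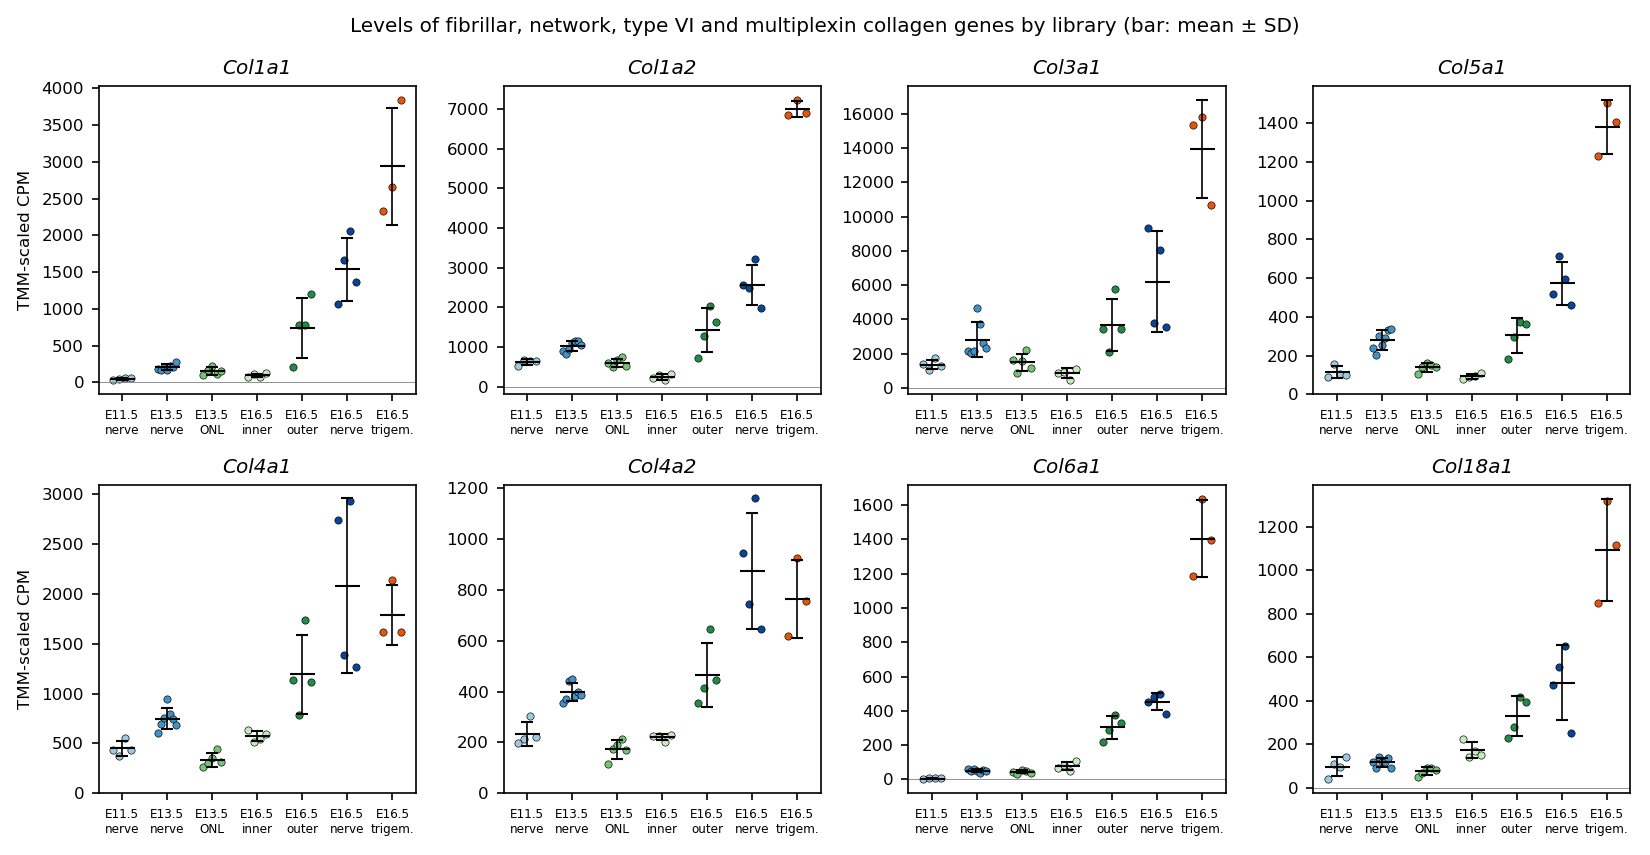
Level in each library (points, CPM, linear axis of its own in each panel) with the group mean and SD for Col1a1, Col1a2, Col3a1, Col5a1, Col4a1, Col4a2, Col6a1 and Col18a1 over the 7 groups. The means of Col1a2 and Col3a1 rise from inner ONL through outer ONL and olfactory nerve to trigeminal nerve, with no overlap of olfactory and trigeminal nerve.

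The type IV genes did not move as 1 class. Col4a1 and Col4a2, whose shared start is printed above, encode the chains found in nearly all basement membranes. Col4a1 (chr8:11198423-11312826, −) had 516 to 635 CPM in inner ONL, 1140, 782, 1738 and 1119 in outer ONL, 2743, 1385, 2929 and 1269 in olfactory nerve and 1620, 2137 and 1616 in trigeminal nerve. Unlike Col1a2 and Col3a1, it was not highest in trigeminal nerve, where it lay within the range of olfactory nerve (0.22 ± 0.25, adjusted p = 0.581). Col4a2, at 618, 923 and 755 CPM in trigeminal nerve and 946, 744, 1160 and 644 in olfactory nerve, overlapped between the nerves too (0.19 ± 0.20, adjusted p = 0.549). Both were lower in inner than in outer ONL, Col4a1 by 1.06 ± 0.23 (adjusted p = 0.00137) and Col4a2 by 1.08 ± 0.19 (adjusted p = 0.000126). From olfactory nerve to outer ONL, Col4a2 dropped by 0.91 ± 0.19 (adjusted p = 0.000563) and Col4a1 by 0.80 ± 0.23 (adjusted p = 0.0104), the latter lost without olfactory nerve replicate 1 (adjusted p = 0.058) or outer ONL replicate 2 (0.0507).

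Col4a5 (chrX:141475385-141689234, +), which encodes a chain of the networks of kidney glomerulus and smooth muscle, followed another order. It had 23.9 to 40.0 CPM in inner ONL, 60.5, 42.2, 79.3 and 45.3 in outer ONL, 29.5, 29.5, 41.6 and 20.7 in olfactory nerve and 95.3, 135 and 85.9 in trigeminal nerve. Olfactory nerve was thus below both outer ONL and trigeminal nerve, without overlap, and the trigeminal difference was −1.80 ± 0.28 (adjusted p = 1.47e-05). Outer ONL was higher than olfactory nerve by 0.91 ± 0.26 (adjusted p = 0.0124), a call lost without olfactory nerve replicate 4 (adjusted p = 0.0868) or outer ONL replicate 3 (0.0683). Its neighbour Col4a6 had 9.74, 10.6, 14.7 and 8.30 CPM in outer ONL and 5.94, 5.69, 7.09 and 6.09 in olfactory nerve, a difference of 0.80 ± 0.51 that did not pass the unpaired test (adjusted p = 0.297) and did with the replicate block (adjusted p = 0.032) or in a fit of the 2 groups alone (0.0371). Col4a3 and Col4a4, the chains of the mature glomerular network, were below 5 CPM in all libraries. They went opposite ways between the nerves, with Col4a3 at 0.248 to 1.38 CPM in olfactory and 0.0721 to 0.221 in trigeminal nerve and Col4a4 at 0.222 to 1.76 and 3.39 to 4.63. Both calls (Col4a3 2.67 ± 0.90, adjusted p = 0.0298, and Col4a4 −1.94 ± 0.61, adjusted p = 0.0195) were lost without 1 of several libraries, which were olfactory nerve replicates 2 and 4 and trigeminal replicates 1 and 2 for Col4a3 (adjusted p = 0.0593 to 0.122) and olfactory nerve replicate 4 and trigeminal replicates 1 and 3 for Col4a4 (0.0567 to 0.0729).

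Type VI collagen forms beaded filaments beside basement membranes, and its 3 genes were highest in trigeminal nerve. Col6a1 (chr10:76708792-76726168, −) had 51.5 to 110 CPM in inner ONL, 218, 287, 378 and 332 in outer ONL, 452, 481, 497 and 383 in olfactory nerve and 1186, 1636 and 1394 in trigeminal nerve. These ranges did not overlap between any of the 4 places. Its difference was −1.63 ± 0.32 between olfactory and trigeminal nerve (adjusted p = 0.000319) and −1.95 ± 0.31 between inner and outer ONL (adjusted p = 4.05e-05), while that between outer ONL and olfactory nerve (−0.58 ± 0.30, adjusted p = 0.187) passed with the replicate block (adjusted p = 0.0114) or in fits of fewer groups (0.0307 for the E16.5 libraries alone). Col6a2 differed in all 4 comparisons, and Col6a3 had 117 to 256 CPM in outer ONL, 123 to 274 in olfactory nerve and 370 to 535 in trigeminal nerve. The Col6a3 difference between olfactory and trigeminal nerve (−1.18 ± 0.34, adjusted p = 0.0111) was lost without trigeminal replicate 2 (adjusted p = 0.0531).

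Type VIII collagen, a short-chain network collagen of vessel walls and of the corneal endothelium's membrane, marked olfactory nerve. Col8a1 (chr16:57624258-57754737, −) had 462, 215, 496 and 303 CPM in olfactory nerve, 60.9, 61.2 and 72.4 in trigeminal nerve, 14.9, 53.0, 71.6 and 48.3 in outer ONL and 2.29 to 6.85 in inner ONL. Every olfactory nerve library was above every other E16.5 library. It differed between outer ONL and olfactory nerve by −2.97 ± 0.60 (adjusted p = 0.000427), between olfactory and trigeminal nerve by 2.51 ± 0.66 (adjusted p = 0.00496) and between inner and outer ONL by −3.27 ± 0.63 (adjusted p = 0.000412). Outer ONL and trigeminal nerve overlapped (−0.46 ± 0.60, adjusted p = 0.628). Its partner Col8a2 had 424, 295, 457 and 272 CPM in olfactory nerve, 197, 317 and 250 in trigeminal nerve, 27.2, 73.1, 152 and 59.1 in outer ONL and 2.36 to 9.64 in inner ONL. For Col8a2 the nerves overlapped (0.51 ± 0.38, adjusted p = 0.363), while outer ONL lay below olfactory nerve (−2.22 ± 0.36, adjusted p = 2.68e-05) and trigeminal nerve (−1.71 ± 0.37, adjusted p = 0.000766). Mural cell markers summed to 818 to 2895 CPM in olfactory nerve, 1014 to 1711 in trigeminal nerve and 303 to 547 in outer ONL, and their part in the type VIII result was not tested.

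Col7a1 (chr9:108953586-108984875, +), the anchoring fibril of epithelial basement membranes, had 25.2, 3.22, 17.4 and 18.4 CPM in olfactory nerve, 3.07 to 4.27 in outer ONL and 0.793, 1.44 and 0.698 in trigeminal nerve. Olfactory nerve replicate 2 stood with outer ONL rather than with its group. The difference was −2.18 ± 0.48 between outer ONL and olfactory nerve (adjusted p = 0.00112) and 4.04 ± 0.59 between the nerves (adjusted p = 5.08e-06). The higher level of Col7a1 in outer ONL than in trigeminal nerve (1.86 ± 0.55, adjusted p = 0.011) was lost without trigeminal replicate 1 (adjusted p = 0.055) or 3 (0.0619). Markers of surface and basal epithelium summed to 54.7 to 191 CPM in olfactory nerve, 11.4 to 19.9 in outer ONL and 15.5 to 25.4 in trigeminal nerve, and their part in the Col7a1 result was not tested. Col28a1, a type VI-like collagen known in peripheral nerve, had 7.49, 14.1, 10.8 and 12.9 CPM in olfactory nerve, 6.17 to 10.5 in trigeminal nerve and 1.57 to 4.55 in outer ONL. The nerves overlapped (0.46 ± 0.60, adjusted p = 0.631) and outer ONL was below olfactory nerve (−1.95 ± 0.58, adjusted p = 0.0136).

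Among the fibril-associated genes, 3 were high in olfactory nerve and low in ONL. Col14a1 (chr15:55307750-55520803, +), a fibril-spacing collagen of tendon and skin, had 274, 329, 299 and 261 CPM in olfactory nerve and 377, 317 and 324 in trigeminal nerve, which overlapped, against 6.83, 44.8, 77.4 and 34.2 in outer ONL and 1.68 to 4.22 in inner ONL. It was lower in outer ONL than in olfactory nerve by 2.83 ± 0.44 on the log2 scale (adjusted p = 1.24e-05) and had the largest difference of the 34 genes between inner and outer ONL (−3.92 ± 0.49, adjusted p = 1.66e-06). Outer ONL replicate 1, low for Col1a1 and Col8a1, was the lowest of its group here too. Col12a1 (chr9:79598991-79718831, −), a related collagen of dense connective tissue, had 317, 605, 392 and 424 CPM in olfactory nerve, 119, 177 and 160 in trigeminal nerve, 36.8, 138, 213 and 98.3 in outer ONL and 10.1 to 18.6 in inner ONL. It was higher in olfactory than in trigeminal nerve (1.51 ± 0.40, adjusted p = 0.00504) and lower in outer ONL than in olfactory nerve (−1.84 ± 0.36, adjusted p = 0.000333). Col20a1 (chr2:180986535-181018363, +) had 61.4, 36.9, 78.7 and 57.5 CPM in olfactory nerve, 6.75, 14.1, 16.1 and 8.85 in outer ONL, 3.10, 6.67 and 7.79 in trigeminal nerve and 1.65 to 3.92 in inner ONL. Every olfactory nerve library exceeded all other E16.5 libraries, by a log2 difference of 3.32 ± 0.63 from trigeminal nerve (adjusted p = 0.000191) and with outer ONL lower by 2.36 ± 0.54 (adjusted p = 0.00167).

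Col22a1 (chr15:71795795-72034227, −), a collagen of tissue junctions such as that of muscle and tendon, ran the other way at a low level. It had 1.18, 0.309, 0.780 and 0.277 CPM in olfactory nerve, 4.76, 3.71, 3.34 and 5.31 in outer ONL, 2.29 to 4.74 in inner ONL and 10.3, 2.53 and 10.6 in trigeminal nerve. Olfactory nerve lay below all the other E16.5 libraries, with outer ONL higher by 2.76 ± 0.54 (adjusted p = 0.000311) and trigeminal nerve above olfactory nerve (−3.63 ± 0.57, adjusted p = 1.38e-05). Inner and outer ONL overlapped (−0.22 ± 0.49, adjusted p = 0.869). Col16a1 had 156 to 231 CPM in outer ONL, 235 to 453 in olfactory nerve and 381 to 521 in trigeminal nerve, and was lower in outer ONL than in either nerve (−1.01 ± 0.31, adjusted p = 0.0159, and −1.25 ± 0.33, adjusted p = 0.00431). Col19a1 reached at most 9.82 CPM in any library.

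The remaining genes include those that set both olfactory compartments apart from trigeminal nerve. Col23a1 (chr11:51289920-51583918, +), a transmembrane collagen, had 56.2 to 63.8 CPM in inner ONL, 70.7, 77.9, 51.8 and 78.6 in outer ONL, 50.2, 54.8, 52.2 and 45.6 in olfactory nerve and 15.5, 18.2 and 10.2 in trigeminal nerve. All 12 ONL and olfactory nerve libraries exceeded the 3 trigeminal libraries, by 2.25 ± 0.29 on the log2 scale for outer ONL (adjusted p = 3.92e-07) and 1.79 ± 0.28 for olfactory nerve (adjusted p = 1.43e-05). Col23a1 was the only one of the 34 genes higher in both outer ONL and olfactory nerve than in trigeminal nerve, apart from Col7a1, and its difference between outer ONL and olfactory nerve did not pass the test (0.46 ± 0.25, adjusted p = 0.198). Col25a1 (chr3:130131501-130599877, +), a transmembrane collagen known from motor innervation of muscle, had 25.6, 53.7, 47.9 and 43.9 CPM in olfactory nerve, 6.98 to 17.9 in outer ONL and 8.80, 14.4 and 9.48 in trigeminal nerve. It was higher in olfactory nerve than in trigeminal nerve (1.97 ± 0.37, adjusted p = 0.00014) and than in outer ONL (−1.72 ± 0.33, adjusted p = 0.000233). The multiplexin Col18a1 (chr10:77052178-77166548, −), a basement membrane collagen that yields endostatin, had 143 to 226 CPM in inner ONL, 231 to 418 in outer ONL, 472, 557, 652 and 251 in olfactory nerve and 851, 1316 and 1114 in trigeminal nerve. The nerves did not overlap (−1.18 ± 0.30, adjusted p = 0.00399). Col26a1 (chr5:136741759-136883209, −) had 60.7 to 67.7 CPM in inner ONL and 136, 159, 212 and 222 in outer ONL (−1.51 ± 0.17, adjusted p = 4.18e-07). Col15a1, Col13a1 and Col17a1 stayed below 17.3 CPM in all libraries.

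**Figure D4:**
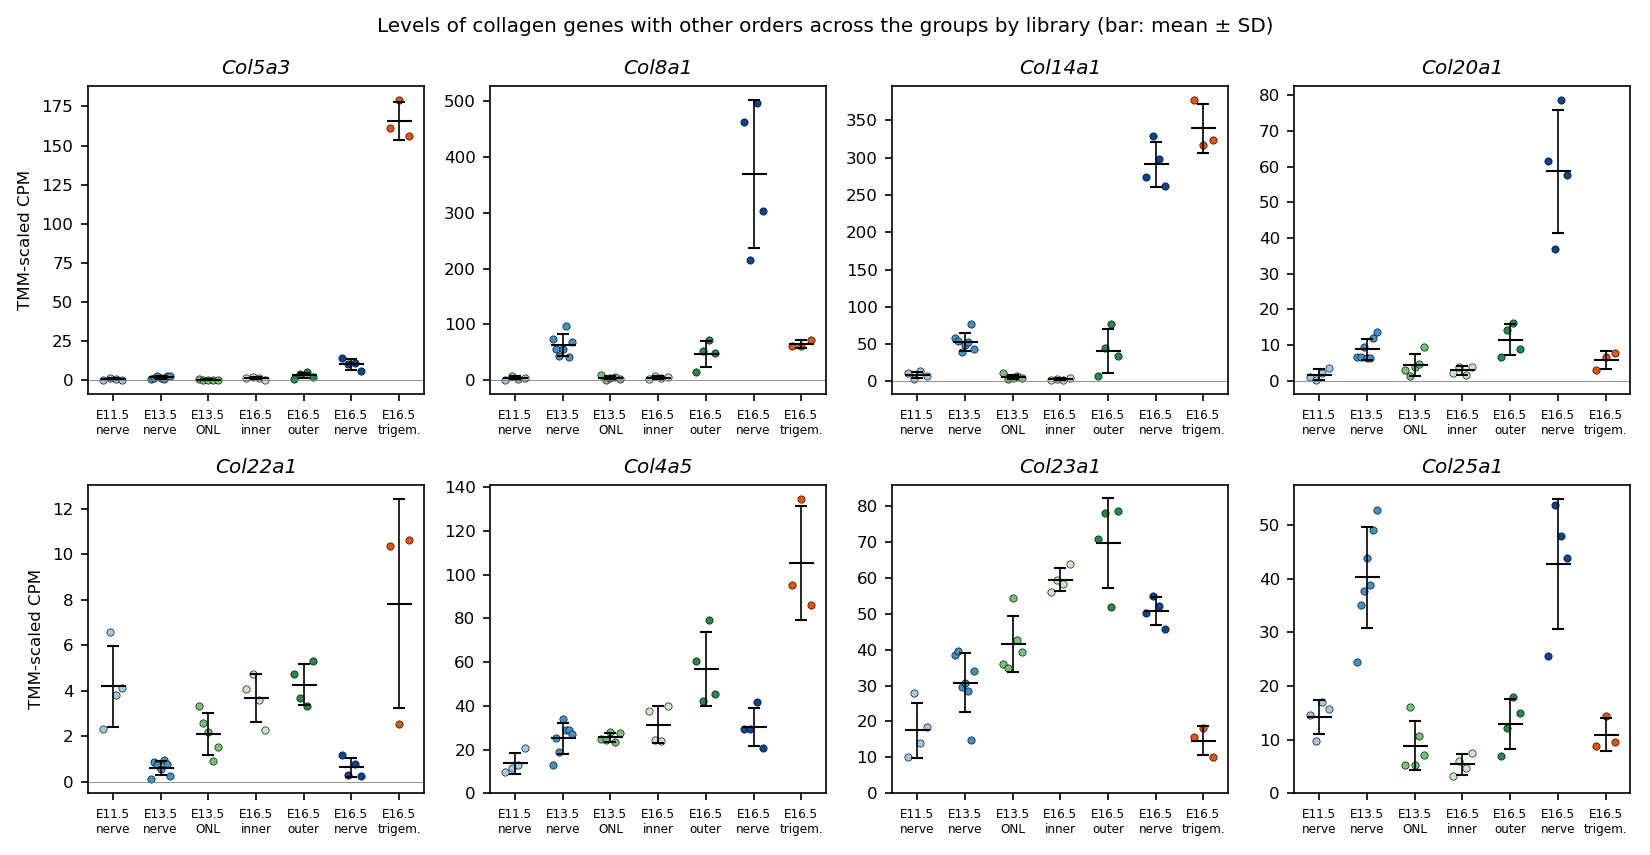
Level in each library (points, CPM, linear axis of its own in each panel) with group mean and SD of 8 collagen genes whose order over the 7 groups differed from that of the abundant fibrillar chains. Col5a3 is highest in trigeminal nerve (156 to 179 CPM), Col8a1 and Col20a1 in E16.5 olfactory nerve, and Col23a1 is lower in trigeminal nerve than in the other E16.5 groups.

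In all, leaving out 1 library at a time removed the call of 6 genes in outer ONL against olfactory nerve, 5 in outer ONL against trigeminal nerve, 6 between the nerves and 4 between inner and outer ONL. Those not yet named for it are as follows. Against olfactory nerve they were Col6a2 (olfactory nerve replicates 2 and 3 and outer ONL replicates 1 and 2, adjusted p = 0.0508 to 0.117) and Col17a1 (olfactory nerve replicate 3 and outer ONL replicates 1 and 3, 0.0538 to 0.0652). For outer ONL against trigeminal nerve they were Col5a2 (outer ONL replicates 2 and 4 and each trigeminal library, 0.0527 to 0.107), Col4a2 (trigeminal replicate 2, 0.0661), Col4a5 (outer ONL replicates 2 and 4 and trigeminal replicate 2, 0.0598 to 0.127) and Col26a1 (outer ONL replicates 1 and 2 and trigeminal replicates 1 and 2, 0.0647 to 0.117). Between the nerves they were Col5a2 (6 of 7 libraries, 0.0626 to 0.135) and Col19a1 (olfactory nerve replicates 2 and 4 and trigeminal replicate 2, 0.053 to 0.0852). Between inner and outer ONL they were Col4a5 (outer ONL replicates 1 and 3 and inner ONL replicates 2 and 3, 0.051 to 0.141), Col20a1 (outer ONL replicate 3 and inner ONL replicates 1 and 3, 0.0509 to 0.0521), Col18a1 (outer ONL replicates 3 and 4 and inner ONL replicates 2 and 4, 0.06 to 0.0872) and Col13a1 (inner ONL replicates 1 and 2, 0.0515 to 0.0555).

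Some lists of markers of the cells around the nerves followed the order of the type I and type III genes and others did not. The 9 fibroblast and mesenchyme markers summed to 880 to 1345 CPM in inner ONL, 2803 to 4225 in outer ONL, 4556 to 6763 in olfactory nerve and 6424 to 7194 in trigeminal nerve, the order of the means of the type I and type III genes, with Dpt at or under 3 counts in every outer ONL and olfactory nerve library and Twist2 in every inner ONL library. Of the 8 tested, 4 were lower in outer ONL than in olfactory nerve, 5 lower in outer ONL than in trigeminal nerve, 2 lower in olfactory than in trigeminal nerve and 6 lower in inner than in outer ONL, with none higher. Of 7 mural cell markers 4, 6, 2 and 2 were lower in the same comparisons and 1 was higher, in olfactory against trigeminal nerve. Cartilage markers summed to 1482 to 7408 CPM in olfactory nerve, 962 to 1989 in outer ONL, 663 to 814 in inner ONL and 1289 to 1407 in trigeminal nerve, and 9 of 10 were lower in outer ONL than in olfactory nerve. Of these cartilage markers 6 were higher in olfactory than in trigeminal nerve and none lower. Bone-forming cell markers summed to 332 to 1077 CPM in trigeminal nerve and 69.2 to 94.2 in olfactory nerve, where 4 of 6 tested were lower. Perineurial and meningeal markers summed to 93.7 to 213 CPM in inner ONL, 298 to 525 in outer ONL, 455 to 708 in olfactory nerve and 873 to 1031 in trigeminal nerve. Of 8 endothelial markers 1 was lower in outer ONL than in olfactory nerve, 3 lower than in trigeminal nerve, none passed the test between the nerves and 1 was lower in inner ONL, and of 6 macrophage markers 1 differed, lower in outer ONL than in trigeminal nerve. Of 6 olfactory sensory neuron markers 4 were higher in olfactory than in trigeminal nerve, and all 6 bulb neuron markers were higher in inner than in outer ONL. Of all genes 22.0% differed between outer ONL and olfactory nerve, 25.8% between outer ONL and trigeminal nerve, 23.6% between the nerves and 14.1% between inner and outer ONL. The counts of 2 of 8 fibroblast markers between the nerves and 1 of 8 endothelial markers in inner ONL are near those shares. With so few markers per list, such counts say little by themselves. The part of these cells in the collagen results was not tested.

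At E13.5, ONL was again lower than olfactory nerve for most collagen genes that differed. Of the 34 genes 16 differed, 2 higher and 14 lower in ONL, where 31.5% of all genes differed (15.4% higher and 16.1% lower), and the median log2 fold change was −0.65. Under the labels' grouping 9 genes differed, 5 of them among the 16, against 17.7% of all genes. Because some libraries share an embryo, these p-values are too small. Col8a1 had 1.22 to 8.85 CPM in the 5 ONL libraries and 42.2 to 97.3 in the 7 olfactory nerve libraries, which did not overlap (−4.06 ± 0.59, adjusted p = 2.37e-06). Under the labels its difference was −1.70 (adjusted p = 0.143). Col14a1 had 3.02 to 10.8 against 39.9 to 76.6 CPM (−3.34 ± 0.42, adjusted p = 1.64e-07, and −1.64 with adjusted p = 0.0384 under the labels). The transmembrane Col25a1 had 5.26 to 16.1 against 24.5 to 52.7 CPM (−2.16 ± 0.29, adjusted p = 6.18e-07, and −0.63 with adjusted p = 0.28 under the labels). In none of these 3 genes did the groups overlap, and all 3 were also lower in outer ONL than in olfactory nerve at E16.5.

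Basement membrane chains also differed at E13.5. Col4a1 had 260 to 445 CPM in ONL and 610 to 950 in olfactory nerve (−1.15 ± 0.19, adjusted p = 2.32e-05) and Col4a2 113 to 212 against 357 to 451 (−1.20 ± 0.16, adjusted p = 5.67e-07). Under the labels neither passed (−0.48, adjusted p = 0.148, and −0.47, adjusted p = 0.114). Col26a1 had 72.2 to 94.4 against 181 to 297 CPM (−1.57 ± 0.14, adjusted p = 6.49e-10, and −0.10 with adjusted p = 0.768 under the labels). The 2 genes higher in ONL were Col22a1, at 0.934 to 3.32 CPM against 0.117 to 0.963 (1.78 ± 0.45, adjusted p = 0.00266, and also higher under the labels with adjusted p = 0.00837), and Col24a1, at 15.3 to 24.1 against 5.84 to 15.6 (1.09 ± 0.34, adjusted p = 0.0142, and −0.68 with adjusted p = 0.297 under the labels). Both pairs of ranges met only at their ends. Of the 8 fibrillar genes 5 were lower in ONL and 1 higher. Col1a2 had 498 to 740 CPM in ONL and 829 to 1149 in olfactory nerve, without overlap. Under the labels its ranges overlapped, at 516 to 1048 and 520 to 1149 CPM. Col3a1 had 883 to 2225 CPM in ONL and 2067 to 4667 in olfactory nerve, which overlapped. Some other abundant chains did not pass the test at E13.5, with Col1a1 at 93.5 to 225 CPM in ONL and 161 to 276 in olfactory nerve (−0.43 ± 0.28, adjusted p = 0.262, and −1.02 with adjusted p = 0.0801 under the labels), Col6a1 at −0.22 ± 0.26 (adjusted p = 0.577, and −1.78 with adjusted p = 0.0119 under the labels) and Col12a1 at −0.38 ± 0.30 (adjusted p = 0.374, and −1.79 with adjusted p = 0.0556 under the labels). Perineurial and meningeal markers summed to 68.1 to 153 CPM in ONL and 744 to 1068 in olfactory nerve, fibroblast markers to 563 to 1642 and 1040 to 1631, and mural markers to 94.1 to 128 and 229 to 457, and their part was not tested.

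Whether the difference between ONL and olfactory nerve changed from E13.5 to E16.5 was tested as an interaction. It was called for 3 of the 34 genes, 1 higher and 2 lower, where it was called for 12.3% of all genes (5.59% higher and 6.75% lower). The count is thus a smaller share than among all genes. Col24a1 was higher in ONL at E13.5, while at E16.5 it had 1.23 to 9.34 CPM in outer ONL and 8.47 to 16.7 in olfactory nerve, which overlapped and did not pass the test by themselves (adjusted p = 0.0774). The difference between stages did pass (interaction −2.12 ± 0.54, adjusted p = 0.00781). Col26a1 had the larger deficit at E13.5 (0.96 ± 0.22, adjusted p = 0.00267). Col12a1 had the larger deficit at E16.5 (−1.46 ± 0.46, adjusted p = 0.0321), a call lost without the library labelled E11.5_ON1, the library labelled E11.5_ON4, E16.5 olfactory nerve replicate 2 or outer ONL replicate 1 or 4 (adjusted p = 0.0535 to 0.0829). Under the labels' grouping 5 genes were called, against 12.5% of all genes, and none was among these 3. Some early libraries share an embryo, so these p-values are too small.

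From E11.5 to E13.5 genes of nearly every class among the 34 rose in olfactory nerve under the grouping used here. Of the 34 genes 26 rose and 2 fell, where 36.6% of all genes differed (20.2% higher and 16.4% lower), and the median log2 fold change was 1.36. Under the labels' grouping 10 differed, against 17.5% of all genes, and 8 of these were shared, namely Col5a1, Col4a1, Col4a2, Col8a1, Col14a1, Col16a1, Col25a1 and Col26a1. Some libraries share an embryo. All 8 fibrillar, all 3 type VI and 5 of 6 type IV genes rose.

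Type VI collagen was low in the E11.5 pieces. Col6a3 (chr1:90765923-90843971, −) had 0.901, 5.32, 7.88 and 3.98 CPM at E11.5 and 105 to 137 at E13.5 (4.76 ± 0.37, adjusted p = 3.39e-11), and Col6a1 had 1.06, 7.44, 7.68 and 6.76 and then 39.8 to 60.9 (3.16 ± 0.32, adjusted p = 6.57e-09). Under the labels these were 0.41 (adjusted p = 0.747) and 0.13 (adjusted p = 0.894). Col12a1 rose from 6.77 ± 3.81 CPM (SD, n = 4) to 151 ± 30.8 (n = 7), with no overlap (4.48 ± 0.40, adjusted p = 5.13e-10, and 0.17 with adjusted p = 0.902 under the labels). Col8a1 had 0.0265, 7.99, 1.91 and 4.78 CPM at E11.5 and 42.2 to 97.3 at E13.5 (4.09 ± 0.62, adjusted p = 6.23e-06, and 3.55 with adjusted p = 0.0167 under the labels). Its partner Col8a2 was already at 148 to 284 CPM at E11.5 and had 104 to 189 at E13.5 (−0.42 ± 0.30, adjusted p = 0.296), although under the labels it rose (1.39, adjusted p = 0.0115). Col1a1 likewise rose from 27.3, 46.8, 58.0 and 54.1 CPM to 161 to 276 (2.14 ± 0.32, adjusted p = 5.67e-06), but under the labels the change was 0.32 (adjusted p = 0.683). Col1a2 moved less, from 516 to 670 to 829 to 1149 CPM (0.72 ± 0.19, adjusted p = 0.00449, and 0.59 with adjusted p = 0.0847 under the labels). Col19a1 had 0, 0, 0.083 and 0 CPM at E11.5 and 1.12 to 3.18 at E13.5 (adjusted p = 3.83e-05), with no fold given because E11.5 was at the floor.

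The 2 genes that fell were Col13a1, a transmembrane collagen of the neuromuscular junction, from 12.1 to 17.2 CPM to 1.04 to 3.91 (−2.65 ± 0.33, adjusted p = 2.69e-07, and −0.21 with adjusted p = 0.784 under the labels), and Col22a1, from 2.30 to 6.57 to 0.117 to 0.963 (−2.81 ± 0.45, adjusted p = 1.48e-05, and −1.46 with adjusted p = 0.0746 under the labels). Neither pair of ranges overlapped. The call of Col5a3 was lost without the library labelled E13.5_ON7, E13.5_ONL1, E13.5_ONL2, E13.5_ONL4 or E13.5_ONL5 (adjusted p = 0.0582 to 0.108). That of Col27a1 was lost without E13.5_ON7, E13.5_ONL2, E13.5_ONL4 or E13.5_ONL5 (0.0564 to 0.0681), and that of Col26a1 without E13.5_ON6, E13.5_ON7, E13.5_ONL1, E13.5_ONL2, E13.5_ONL3 or E13.5_ONL5 (0.0681 to 0.188). Summed perineurial and meningeal markers went from 103 to 249 CPM to 744 to 1068, with 2 of 6 higher and 2 lower, and of 6 glial markers 2 rose and 3 fell. Over the same step all 8 endothelial, 6 of 8 fibroblast and 5 of 7 mural markers rose. So did 4 of the bone-forming, 2 of the cartilage, 2 of the macrophage and 2 of the surface epithelium markers. Against these, 1 fibroblast and 1 cartilage marker fell, and the median log2 fold change of the cartilage list was −0.27. Of bulb neuron markers 1 rose and 2 fell, and of olfactory sensory neuron markers 2 rose and 2 fell. The part of these cells was not tested.

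From E13.5 to E16.5 no collagen gene fell in olfactory nerve. There 23 rose, where 28.8% of all genes differed (15.2% higher and 13.6% lower), with a median log2 fold change of 1.24. Under the labels 21 differed, 20 of them shared, against 25.1% of all genes, so this comparison depended less on the grouping than the other 3 that use early libraries. Some E13.5 libraries share an embryo. Col28a1 had 0.117 to 2.24 CPM at E13.5 and 7.49 to 14.1 at E16.5 (3.29 ± 0.51, adjusted p = 1.52e-05). Col6a1 rose from 39.8 to 60.9 CPM to 383 to 497 (3.15 ± 0.27, adjusted p = 8.91e-10) and Col1a1 from 161 to 276 to 1059 to 2052 (2.91 ± 0.29, adjusted p = 1.39e-08). None of these 3 overlapped between stages, and under the labels they rose by 3.38, 3.20 and 3.04. Both type VIII, both multiplexin, all 3 type VI, 6 of 8 fibrillar and 4 of 6 fibril-associated genes rose, among the latter Col20a1 (2.74 ± 0.45, adjusted p = 3.93e-05). Col26a1, at 181 to 297 and then 230 to 327 CPM (0.23 ± 0.15, adjusted p = 0.237), and Col5a2 (0.36 ± 0.18, adjusted p = 0.134) did not pass the test, the latter passing without the library labelled E13.5_ON5 (0.0362). The call of Col15a1 was lost without E16.5 olfactory nerve replicate 3 (adjusted p = 0.0611) and that of Col6a3 without the library labelled E13.5_ON2, E13.5_ON3, E13.5_ON5 or E13.5_ON7 or E16.5 olfactory nerve replicate 2 or 3 (0.0526 to 0.176). All 10 cartilage markers rose too, with 5 glial, 5 fibroblast, 5 endothelial, 5 macrophage and 4 mural markers, while 2 fibroblast markers fell. Of surface epithelium markers 4 rose and 1 fell, and of perineurial and meningeal markers 1 rose and 1 fell. Also 1 bone-forming, 1 bulb neuron and 1 olfactory sensory neuron marker rose. The part of these cells was not tested.

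In ONL, comparing outer ONL at E16.5 with ONL at E13.5, 24 collagen genes were higher and 1 lower at E16.5, where 41.9% of all genes differed (21.9% higher and 20.0% lower), with a median of 1.22. Under the labels 20 differed, 17 of them shared, against 35.2% of all genes. E13.5 ONL was not divided into inner and outer parts, and some of its libraries share an embryo. Col5a3 had 0.830, 0.144, 0.130, 0.208 and 0.179 CPM at E13.5 and 0.844 to 4.98 in outer ONL (3.83 ± 0.75, adjusted p = 0.000129, and 1.76 with adjusted p = 0.0481 under the labels). Col8a1 (3.64 ± 0.61, adjusted p = 1.82e-05, and 1.53 with adjusted p = 0.181 under the labels) and Col16a1, at 17.5 to 26.4 and then 156 to 231 CPM (3.20 ± 0.31, adjusted p = 2.16e-09, and 3.04 under the labels), rose. Col24a1 was the 1 gene that fell (−1.61 ± 0.41, adjusted p = 0.00218, and 0.10 with adjusted p = 0.895 under the labels). Col4a1 rose by 1.83 ± 0.22 (adjusted p = 8.07e-08, and 1.26 under the labels) and Col26a1 by 1.20 ± 0.16 (adjusted p = 4.07e-07), the latter −0.11 (adjusted p = 0.745) under the labels. The call of Col7a1 was lost without any 1 of the 9 libraries compared (adjusted p = 0.0575 to 0.107), and that of Col20a1 without the library labelled E11.5_ON1, E11.5_ON2, E11.5_ON3 or E11.5_ON4 or outer ONL replicate 2 or 3 (0.057 to 0.114). All 7 mural, 8 of 10 cartilage and 5 of 6 glial markers rose as well. So did 4 of 6 perineurial and meningeal, 4 of 8 fibroblast, 4 of 8 endothelial, 2 bone-forming and 2 surface epithelium markers. Against these, 2 fibroblast and 1 perineurial and meningeal marker fell, and 4 of 6 bulb neuron markers fell with none higher. Of 6 olfactory sensory neuron markers 2 rose and 3 fell, and no macrophage marker passed the test. Summed bulb neuron markers went from 785 to 1092 CPM to 6.52 to 142. Summed fibroblast markers went from 563 to 1642 CPM to 2803 to 4225, mural markers from 94.1 to 128 to 303 to 547, cartilage markers from 144 to 216 to 962 to 1989 and glial markers from 4301 to 6731 to 18668 to 32874. The part of these cells in the collagen result was not tested.

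Chains that join in 1 molecule did not keep a fixed ratio of RPKM across the groups. Col1a1 to Col1a2 was 0.0668 on average in E11.5 olfactory nerve (0.0478 to 0.0803), 0.182 in E13.5 olfactory nerve, 0.232 in E13.5 ONL, 0.352 in inner ONL, 0.450 in outer ONL, 0.543 in E16.5 olfactory nerve (0.374 to 0.617) and 0.379 in trigeminal nerve (0.306 to 0.501). The E16.5 groups overlapped in this ratio. The E11.5 libraries lay below the others under the grouping used here but not under the labels, where E11.5 olfactory nerve spans 0.136 to 0.309 and E13.5 ONL 0.0478 to 0.238. Its absolute size depends on the transcript length used for each gene, and its order does not. Col4a1 to Col4a2, the pair with the shared start, was steadier, with group means of 1.83 to 2.54. Col8a1 to Col8a2 was 0.0149 at E11.5 (0.0255 to 0.125 under the labels), 0.359 in E13.5 olfactory nerve (0.034 to 0.606 under the labels), 0.851 in E16.5 olfactory nerve (0.617 to 0.945) and 0.224 in trigeminal nerve (0.163 to 0.262). Col6a3 to Col6a1 was 1.10 in E13.5 olfactory nerve, with the same range of 0.856 to 1.55 under both groupings, and 0.204 at E16.5. Across classes, Col4a1 to Col1a2 separated inner ONL, at 2.02 (1.47 to 2.74), from trigeminal nerve, at 0.206 (0.189 to 0.239), with outer ONL at 0.748 and olfactory nerve at 0.642. These ratios are descriptions and were not tested.

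**Figure D5:**
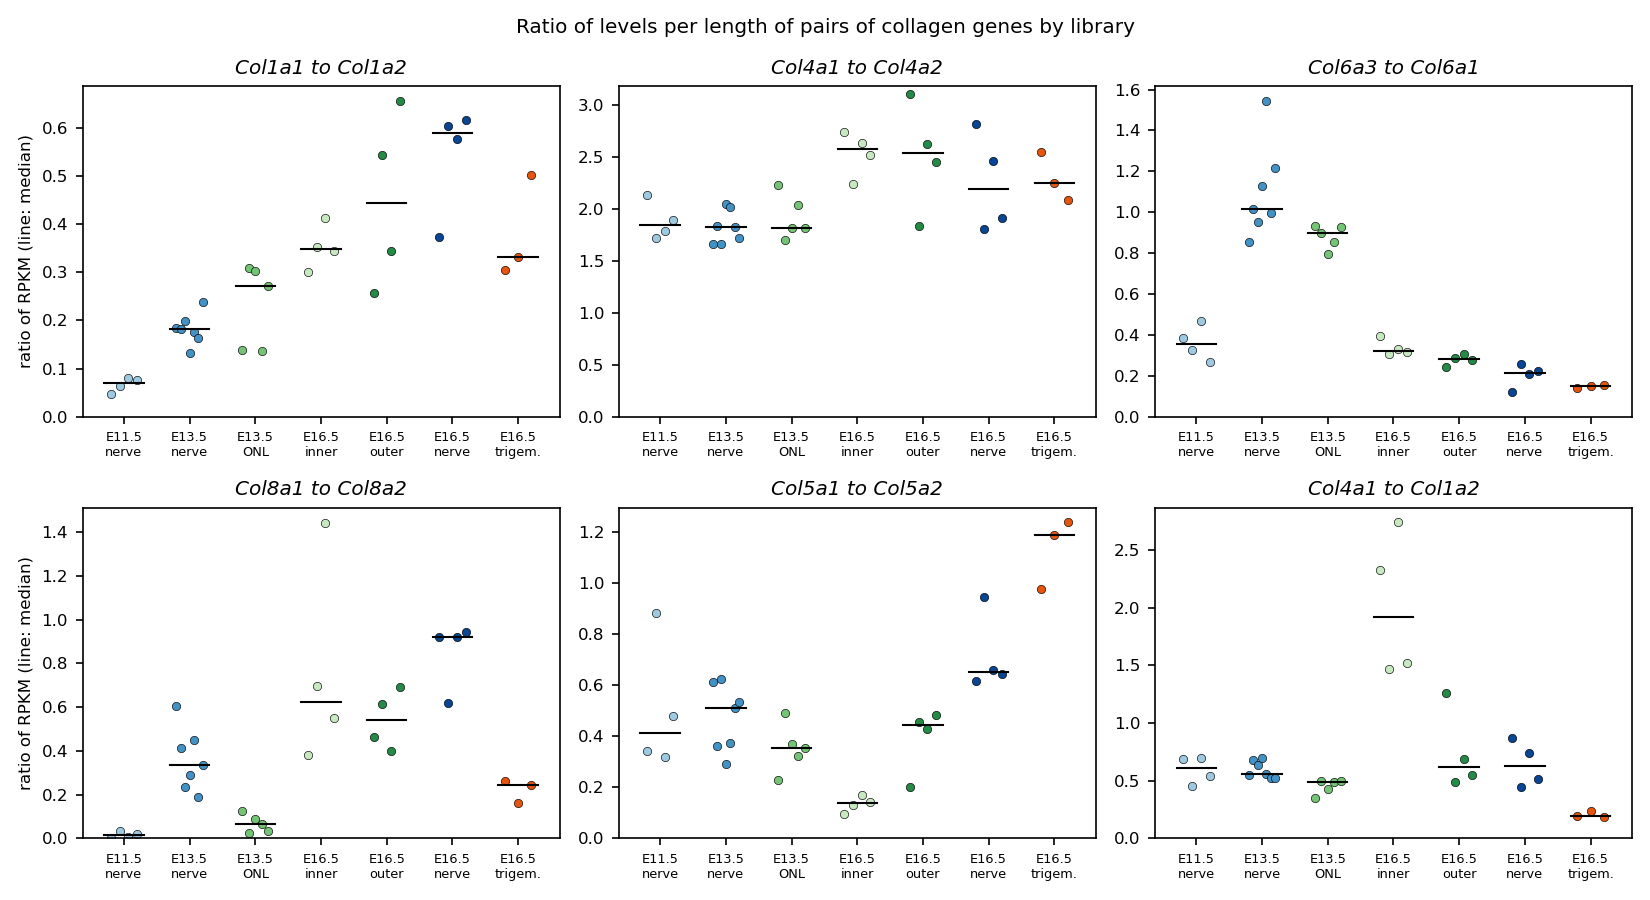
Ratio of RPKM between 2 collagen genes in each library (points, linear axis from 0) over the 7 groups, in 6 panels, with a line at the group median. Under the grouping used here, Col1a1:Col1a2 is lowest in E11.5 olfactory nerve (0.0478 to 0.0803), which under the labels spans 0.136 to 0.309, and Col4a1:Col1a2 is highest in inner ONL (1.47 to 2.74) and lowest in trigeminal nerve (0.189 to 0.239).

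Genes that fold and modify collagen in the endoplasmic reticulum were lower where they differed at E16.5. None of 22 was higher and 5, 15, 10 and 8 were lower in outer ONL against olfactory nerve, outer ONL against trigeminal nerve, olfactory against trigeminal nerve and inner against outer ONL, with medians of −0.20, −1.04, −0.76 and −0.62. The first count, 5 of 22, is near the 22.0% of all genes that differed there and says nothing particular of this list. The others stand against 25.8%, 23.6% and 14.1% of all genes. The prolyl hydroxylase subunit P4ha3 was lower in outer ONL than in olfactory nerve (−1.82 ± 0.44, adjusted p = 0.00263) and lower still in inner ONL (−2.77 against outer ONL). Creb3l1, a transcription factor for collagen export, was lower in olfactory than in trigeminal nerve (−2.35 ± 0.33, adjusted p = 2.4e-06). Over time 10 rose and 3 fell in olfactory nerve from E11.5 to E13.5, 10 rose and 1 fell from there to E16.5, and 13 rose and 1 fell in ONL. Of all genes 36.6%, 28.8% and 41.9% differed in these steps. The last 2 steps included Serpinh1, the collagen chaperone, which rose by 1.63 ± 0.19 in olfactory nerve (adjusted p = 2.26e-07) and by 2.28 in ONL.

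Genes for processing and cross-linking outside the cell were also lower in ONL. Of 20 tested, 10 were lower in outer ONL than in olfactory nerve, 13 lower than in trigeminal nerve and 10 lower in inner than in outer ONL, with none higher, while olfactory nerve had 5 lower and 1 higher than trigeminal nerve. In the order given, 22.0%, 25.8%, 14.1% and 23.6% of all genes differed, and the count between the nerves is close to its share. Lox, which cross-links fibrillar collagen, had 64.9 ± 45.7 CPM (SD, n = 4) in outer ONL and 298 ± 78.7 in olfactory nerve (−2.20 ± 0.42, adjusted p = 0.000233). It was lower again in inner ONL (−2.94 against outer ONL), as was Loxl1 (−2.95 ± 0.30, adjusted p = 1.03e-07). The procollagen protease enhancer Pcolce2 was the gene higher in olfactory than in trigeminal nerve (1.62 ± 0.52, adjusted p = 0.0225), and it was lower in outer ONL than in olfactory nerve (−2.75 ± 0.50, adjusted p = 0.000118). At E13.5, 14 were lower in ONL than in olfactory nerve and none higher, led by Pcolce2 (−4.58 ± 0.50, adjusted p = 1.41e-08), and 10 of the 22 folding genes were lower. From E11.5 to E13.5, 12 rose and 2 fell in olfactory nerve, led by Lox (5.73 ± 0.49, adjusted p = 2.63e-10), then 6 rose and none fell to E16.5, and 10 rose and 1 fell in ONL. Of all genes 36.6%, 28.8% and 41.9% differed in these steps, and the count of 6 is near its share.

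Of 12 collagen receptor genes, 2 to 5 passed the test in each comparison of places at E16.5, with medians of 0.05, −0.76, −0.13 and −0.50 in the same order. Against olfactory nerve, outer ONL had 2 lower and none higher, a smaller share than the 22.0% of all genes, among them Mrc2, an uptake receptor for collagen fragments (−1.18 ± 0.19, adjusted p = 2.64e-05). Against trigeminal nerve it had 4 lower and 1 higher, with Cd44 lower by 2.08, and olfactory nerve had 2 lower and none higher than trigeminal nerve, again below the 23.6% of all genes, with Cd44 lower by 1.17. Inner ONL had 4 lower than outer ONL and none higher, among them the integrin chain Itga11 (−1.99). At E13.5, 2 were higher and 3 lower in ONL, from E11.5 to E13.5 4 rose and 1 fell in olfactory nerve, from there to E16.5 6 rose and none fell, and in ONL 7 rose and 1 fell. Of all genes 31.5%, 36.6%, 28.8% and 41.9% differed in these comparisons, and the count from E11.5 to E13.5 is close to its share. The E13.5 and E11.5 counts of these lists share the limits on embryos and labels given above.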

How the data were processed

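Libraries were made from pooled pieces of cryosections by full-length cDNA amplification (SMART-Seq v4) and paired-end sequencing. The authors aligned reads with TopHat2 2.1.0 to mm10 and deposited whole-number read counts per gene from HTSeq. The strand setting is not given in the sources used here, so Col18a1, which overlaps Slc19a1, Col4a1 and Col4a2, which overlap by 22 bases, and genes overlapped by noncoding RNAs can share reads. Of 47729 identifiers 47224 had a symbol in GENCODE M21, and 1 row without an identifier held 0 counts.

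From the deposited counts, edgeR 4.0.16 (R 4.3.3) with TMM scaling, filterByExpr by group and the quasi-likelihood test was fitted to all 31 libraries, with Benjamini-Hochberg adjustment over 19332 genes. CPM is TMM-scaled and RPKM divides by the longest principal transcript. Alternatives were the labels' grouping, other scalings and filters, DESeq2 1.42.0, fits of fewer groups, a replicate block and leaving out each library. The 34 members and all gene lists (collagen folding, processing, receptors; fibroblast, endothelial, mural, cartilage, bone, glial, bulb neuron, sensory neuron, epithelial, macrophage, and perineurial and meningeal markers) were chosen with earlier results of these data known. Any of the 34 could be named. Library values were given for class leaders and for the 3 largest called changes per comparison of genes whose higher group averaged 5 CPM or more, and of each pathway list up to 3 called genes with the largest change were named.

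At E16.5 each library is 1 embryo, as the study's methods state, and p-values measure the spread between libraries. Same-numbered outer ONL and olfactory nerve libraries deviated together (correlations of 0.264 to 0.495 over 10607 genes in all 4 pairs), so the number was taken as a pair there. Libraries of different number had correlations of −0.412 to 0.391, which overlap that range. The pairing was thus chosen from these same data, and calls made with the replicate block rest on it. The E16.5 compartments were cut from shared embryos, and the sources do not say whether the number marks the embryo.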

Additional observations from a re-analysis of the deposited data

Results flagged for a closer look

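Of 126 levels tested for a library standing apart in a group of 4 to 10, 4 had a gap past Dixon's 95% critical value, which chance exceeds in about 5% of groups. For Col5a3 in E13.5 ONL, the library labelled E11.5_ON1 had 0.830 CPM and the other 4 had 0.130 to 0.208. For Col5a3 in E16.5 inner ONL, replicate 4 had 0.241 CPM and the others 1.55 to 1.66. For Col6a1 in E11.5 olfactory nerve, the library labelled E13.5_ONL2 had 1.06 CPM and the others 6.76 to 7.68. For Col28a1 in the same group, the library labelled E13.5_ONL3 had 2.83 CPM and the others 0.776 to 1.12.

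The difference between ONL and olfactory nerve differed between E16.5 and E13.5 for Col24a1 (−2.12 on the log2 scale), Col12a1 (−1.46) and Col26a1 (0.96), by the interaction test of edgeR over all genes. These 3 of 34 genes are a smaller share than the 12.3% of all genes called. None of them was called under the labels' grouping, and the Col12a1 call was lost without any 1 of 5 libraries.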

How the results depend on the processing

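Calls and directions depended on the grouping of the early libraries. Under the labels, the number of collagen genes called was 13 for outer ONL against olfactory nerve, 9 for the same contrast at E13.5, 10 for olfactory nerve at E13.5 against E11.5 and 5 for the interaction. Directions reversed under the labels for Col24a1 (−0.68) and Col8a2 (0.55) in ONL against olfactory nerve at E13.5, for Col24a1 (−1.05), Col4a4 (−0.55), Col8a2 (1.39), Col19a1 (−0.32) and Col23a1 (−0.41) from E11.5 to E13.5, for Col24a1 (0.10), Col13a1 (−0.42) and Col26a1 (−0.11) in ONL from E13.5 to E16.5, and for Col26a1 in the interaction (−0.50). Those values follow from which libraries each group holds. Leaving out 1 library at a time gave 16 to 21 calls for outer ONL against olfactory nerve, 14 to 20 for outer ONL against trigeminal nerve, 15 to 21 between the nerves, 18 to 21 for inner against outer ONL, 16 to 18 at E13.5, 25 to 28 from E11.5 to E13.5, 21 to 24 and 23 to 25 from E13.5 to E16.5 in olfactory nerve and ONL, and 2 to 4 for the interaction. DESeq2 gave 21, 21, 19, 24, 17, 28, 23, 25 and 3 calls in the order of the comparisons at E16.5, at E13.5, over time and of the interaction. The share of all genes called is not given for DESeq2 or for the fits that left out a library. Their counts therefore describe the collagen genes alone.

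When outer ONL and olfactory nerve were fitted by themselves with a replicate block, 23 genes were called, among them Col3a1, Col6a1 and Col4a6. In the other comparisons the groups also come from shared embryos, but the numbers were not taken to mark them, since same-numbered deviations correlated between −0.326 and 0.278. There the block gave 19 calls for outer ONL against trigeminal nerve, 19 between the nerves and 24 for inner against outer ONL. The share of all genes called with the block is not given. Whether a change in these counts is particular to collagen genes therefore cannot be read from them. For the early groups no paired analysis was possible because the numbers do not carry over to the grouping used here.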
